A study of Homo sapiens with 15 samples.

Results

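The genes described here are 5 of the Notch signalling pathway: DLL4, a membrane-bound ligand, NOTCH3, a receptor, LFNG, a glycosyltransferase of the Fringe family that modifies Notch receptors, MAML2, a coactivator of the Mastermind family, and HES1, a transcriptional repressor that is a classic Notch target. They are 5 of the 758 genes of the measured panel and were chosen by their measured levels and changes against the control in these same libraries, so differences between groups are given for them as a description from which nothing is tested. A gene entered the tests where its normalized linear value was over 20 in at least 3 of the 15 libraries. All 5 genes are among the 622 that did, out of 758.

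The study measured RNA of JIMT-1, an established human HER2-positive breast cancer cell line, grown in medium with 10% fetal bovine serum. Control cells (CTL, n = 4 libraries) were set beside cells given 1 ug/ul of the compound HSL119 (n = 3) and beside the knockdown lines HUNK KD1 (n = 4) and HUNK KD2 (n = 4), which carry shRNA against the kinase HUNK and grew in 1 ug/ul puromycin. The title of the series sets the response to HSL119 against that to HUNK shRNA, and the comparisons below follow that question. Doses and their units are those of the labels and were not checked. The labels do not say whether CTL received vehicle, puromycin or a control shRNA, how long HSL119 was applied, or whether a knockdown line is a clone or a pool, and HUNK is not on the panel, so the knockdown was not checked here.

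In Notch signalling, a ligand of the Delta or Jagged family on a neighbouring cell binds a Notch receptor, which is then cut so that its intracellular domain enters the nucleus. There the domain joins the DNA-binding protein RBPJ and a Mastermind coactivator such as MAML2, and this complex recruits acetyltransferases and switches on targets such as HES1. Fringe enzymes such as LFNG add sugars to the receptor and shift its response between Delta and Jagged ligands. DLL4 is best known from sprouting endothelium and NOTCH3 from the mural cells of vessels, and HES1 is also known for short-lived RNA and for repressing its own gene.

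The promoters of HES1 and DLL4 are shown because, of the 5 genes, HES1 differed most between libraries of the same knockdown line and DLL4 differed most between the knockdown lines and CTL. Each run gives the 250 bases before the gene's start in RefSeq's GRCh38.p14 annotation, 5′ to 3′ on the gene's plus strand, HES1 at chr3:194135898-194136147 and DLL4 at chr15:40929090-40929339. Capitals mark TGGGAA, the core of the motif that RBPJ binds, and the letters TATATA, whose overlapping matches merge into 1 run and which resemble the box where the general transcription machinery binds.
HES1: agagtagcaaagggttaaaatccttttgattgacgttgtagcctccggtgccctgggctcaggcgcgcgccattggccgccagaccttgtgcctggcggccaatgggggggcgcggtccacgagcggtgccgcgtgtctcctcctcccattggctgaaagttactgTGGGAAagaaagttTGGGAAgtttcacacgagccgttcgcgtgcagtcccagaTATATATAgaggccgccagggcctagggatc
DLL4: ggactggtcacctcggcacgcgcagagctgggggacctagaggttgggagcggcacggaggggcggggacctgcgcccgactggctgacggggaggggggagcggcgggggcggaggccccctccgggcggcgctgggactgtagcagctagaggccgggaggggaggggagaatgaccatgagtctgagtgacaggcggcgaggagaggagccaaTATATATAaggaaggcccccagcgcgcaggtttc
Both strands were searched in the promoters of all 5 genes, for which LFNG has 2 annotated starts. TGGGAA occurred 2 times before HES1, starting 84 and 70 bases before the start, and not in the windows of DLL4, NOTCH3 or MAML2 or at the first start of LFNG, whose other start had 1 match. Of 35116 RefSeq promoters searched over the same length, 20.8% held TGGGAA. The motif TATATA occurred before HES1 and DLL4 and in 3.73% of promoters. The N box CACNAG, a motif bound by HES proteins, occurred 3 times before HES1, 2 times before MAML2, 1 time before NOTCH3, not before DLL4 and, of the starts of LFNG, 1 time before the other start alone, and 32.04% of promoters held it.

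RefSeq places DLL4 on chromosome 15 (40929340 to 40939073), NOTCH3 on chromosome 19 (15159038 to 15200995) and MAML2 on chromosome 11 (95976598 to 96343195). HES1 lies on chromosome 3 (194136148 to 194138732) and LFNG on chromosome 7 (2512529 to 2529177). All are protein-coding genes on different chromosomes, and the build behind the panel's probes is not given in the sources used here.

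The whole counts behind the deposited linear values summed to between 1241234 and 1561639 per library. Libraries of a group came in pairs: 1 and 2, or 3 and 4, of CTL and of KD1, and 1 and 2 of KD2, differed by little more than counting noise (chi-square divided by its degrees of freedom 1.13 to 1.45). Libraries of different pairs differed far more in KD1 (112 to 114) and KD2 (127 to 145) than in CTL (4.71 to 4.83), and libraries 3 and 4 of KD2 differed from each other at 20.04. HSL119 had no such pairs: replicates 2 and 3 differed at 3.93, and replicate 1 differed from them at 13.6 and 17.1. Nothing in the labels says that the libraries of a group came from separate cultures, so SDs and p-values measure the spread between these libraries, which may be technical. Replicate 2 of HSL119 had 619 genes over 20, against 523 to 567 in the other libraries. The 5 markers of HER2-positive epithelium on the panel, ERBB2, GRB7, CDH1, KRT7 and ESR1, were over 20 on average in every group, and their summed scaled count was 53254 to 58203 in the CTL libraries. It was lower in HSL119 (43866 to 49755), KD1 (38823 to 45466) and KD2 (32426 to 42730). ERBB2 itself went the other way, with a mean scaled count of 4967 in CTL, 14218 in HSL119, 6427 in KD1 and 6027 in KD2. The lower sum is therefore no loss of ERBB2 RNA.

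Levels are given as scaled counts, that is, deposited linear values divided by a median-of-ratios size factor per library. They are set side by side only within a gene, because the panel gives no length or probe efficiency. In these bulk samples, fewer cells expressing a gene and less RNA per cell cannot be told apart.

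The ligand DLL4 was highest in CTL, lower in HSL119 and lowest in both knockdown lines. Its scaled counts in CTL replicates 1 to 4 were 84.7, 63.3, 80.8 and 94.9, and in HSL119 replicates 1 to 3 they were 27.3, 31.5 and 28.4. The KD1 libraries 1 to 4 held 21.9, 15.1, 7.65 and 14.2, and the KD2 libraries 1 to 4 held 14.1, 17.3, 5.67 and 7.57. Every HSL119 library lay under every CTL library and over every knockdown library, whereas the ranges of KD1 and KD2 overlapped. The CTL mean was 2.78 times that of HSL119, 5.50 times that of KD1 and 7.26 times that of KD2. These are small numbers: the knockdown libraries held from 6 to 22 counts of DLL4, and only 1 of 4 KD1 libraries and 0 of 4 KD2 libraries had a scaled count over 20, so DLL4 entered the tests mainly through CTL and HSL119.

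The receptor NOTCH3 was at a similar level in CTL and HSL119 and lower in the knockdown lines. CTL replicates 1 to 4 held 867, 894, 829 and 816 scaled counts, and HSL119 replicates 1 to 3 held 878, 705 and 738. KD1 libraries held 532, 545, 312 and 291, and KD2 libraries held 378, 387, 196 and 97.4. The ranges of CTL and HSL119 overlapped, with 2 of the 3 HSL119 libraries under all CTL libraries, and every knockdown library lay under every library of CTL and HSL119. Within each knockdown line, libraries 3 and 4 lay under libraries 1 and 2, and the ranges of KD1 and KD2 overlapped. The mean in CTL was 851 ± 35.7 (SD, n = 4), which was 1.10 times that in HSL119, 2.03 times that in KD1 and 3.22 times that in KD2.

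The Fringe gene LFNG was higher in HSL119 than in CTL and lay on both sides of CTL within each knockdown line. Its scaled counts were 199, 159, 158 and 191 in CTL and 298, 238 and 240 in HSL119. KD1 libraries held 122, 122, 266 and 259, and KD2 libraries held 103, 116, 267 and 244. All 3 HSL119 libraries lay above all CTL libraries, libraries 1 and 2 of both knockdown lines lay under them, and libraries 3 and 4 of both lines lay above them. The group means, from 177 in CTL through 182 in KD2 and 192 in KD1 to 259 in HSL119, therefore have no neighbours with separate ranges.

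The coactivator MAML2 varied little within the knockdown lines, and every HSL119 and knockdown library stood higher than CTL. CTL libraries held 65.2, 63.3, 71.4 and 73.3 scaled counts, and HSL119 libraries held 257, 176 and 180. KD1 libraries held 290, 269, 279 and 283, and KD2 libraries held 327, 278, 269 and 272. The KD1 and KD2 ranges overlapped, both lay above every HSL119 library, and HSL119 lay above CTL. Relative to the CTL mean of 68.3 ± 4.81 (SD, n = 4), the mean was 2.99 times as high in HSL119, 4.10 times in KD1 and 4.20 times in KD2.

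The target HES1 had the widest spread of the 5 genes within the knockdown lines. In CTL, replicates 1 to 4 held 2049, 2086, 3779 and 3980 scaled counts, and in HSL119, replicates 1 to 3 held 1866, 1583 and 1636. KD1 libraries held 4473, 4678, 505 and 514, and KD2 libraries held 4554, 4761, 619 and 1562. Libraries 1 and 2 of both knockdown lines lay above all CTL libraries and libraries 3 and 4 of both lines lay under all of them, while the 3 HSL119 libraries also lay under CTL. The means, 2973 in CTL, 2874 in KD2, 2542 in KD1 and 1695 in HSL119, had overlapping ranges between all neighbours, with SDs of 2349 in KD1 and 2097 in KD2 (n = 4 each).

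**Figure D1:**
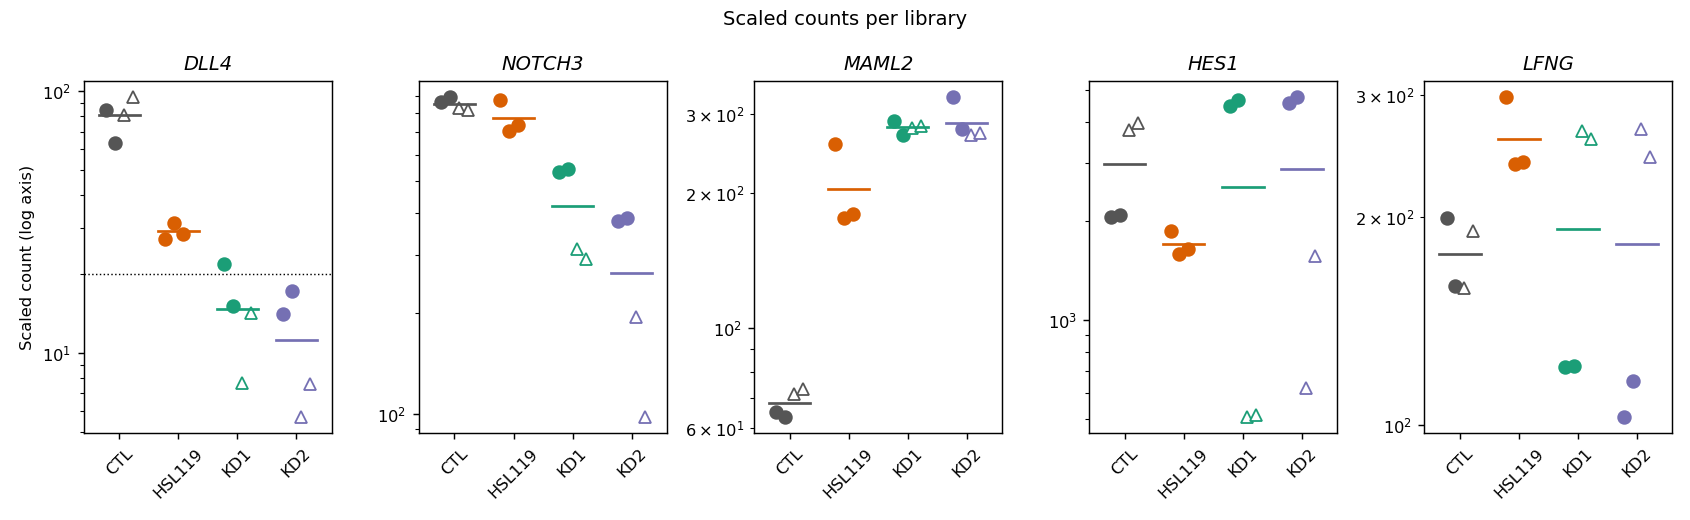
Scaled counts of DLL4, NOTCH3, MAML2, HES1 and LFNG per library on a log axis that differs between panels, with filled circles for libraries 1 and 2 (and all 3 HSL119 libraries), open triangles for libraries 3 and 4, horizontal bars for group means and, for DLL4, a dotted line at 20. MAML2 stays between 269 and 327 in all 8 knockdown libraries, whereas HES1 runs from 505 to 4761 there and splits by library pair.

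Against CTL, the direction was the same in all 3 comparisons for DLL4 (lower) and MAML2 (higher), while NOTCH3 was lower in the knockdown lines and within 1 SE of 0 in HSL119. The 3 comparisons share the 4 CTL libraries. Differences are log2 differences of the deposited values minus the median difference over all 622 tested genes, which was 0.41 for HSL119, 0.43 for KD1 and 0.41 for KD2, and SEs come from limma's fit of all 15 libraries. DLL4 differed from CTL by -1.52 (SE 0.36) in HSL119, -2.55 (SE 0.33) in KD1 and -2.98 (SE 0.33) in KD2. MAML2 differed by 1.51 (SE 0.12), 2.03 (SE 0.12) and 2.07 (SE 0.12) in the same order. NOTCH3 differed by -0.20 (SE 0.36), -1.09 (SE 0.34) and -1.88 (SE 0.34).

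The differences of the other 2 genes lay within 2 SEs of 0. HES1 differed from CTL by -0.80 (SE 0.83) in HSL119, -0.90 (SE 0.77) in KD1 and -0.40 (SE 0.77) in KD2. LFNG differed by 0.50 (SE 0.39), 0.01 (SE 0.36) and -0.07 (SE 0.36), and in KD1 its sign turned to -0.14 after quantile scaling. For both genes, the knockdown means cover libraries 1 and 2 on one side of CTL and libraries 3 and 4 on the other. The SEs rest on 1 spread per gene over all 15 libraries, so this split also enters the SE for HSL119. There, all 3 HSL119 libraries lay under every CTL library for HES1 and above every CTL library for LFNG.

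**Figure D2:**
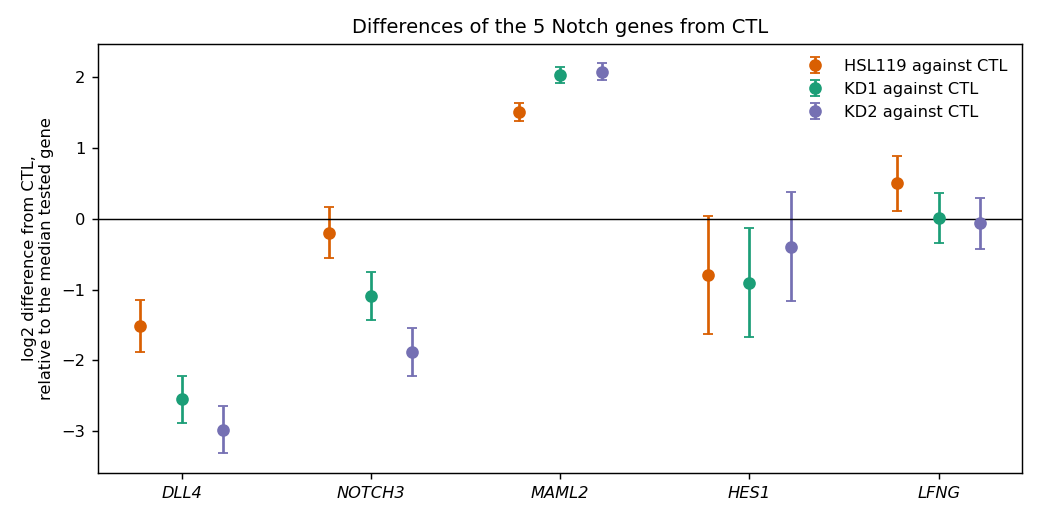
Log2 difference from CTL of the 5 Notch genes, relative to the median tested gene, for HSL119, KD1 and KD2, with bars of 1 SE from limma's fit over 15 libraries. DLL4 lies lowest, from -1.52 to -2.98, MAML2 highest, from 1.51 to 2.07, and the bars of HES1 are the longest, at 0.77 to 0.83.

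For genes other than these 5, a gene was called where limma's Benjamini-Hochberg adjusted p over the 622 genes was under 0.05 in the same direction on 5 scalings of the data, each with all libraries and with libraries 1-2 and 3-4 averaged. The same criterion is given for the 5 genes only to set them beside the panel. In HSL119 against CTL, 1 of the 5 genes met it higher (MAML2) and 1 lower (DLL4), where 38.4% of tested genes were called, 20.3% higher and 18.2% lower. In KD1, 1 met it higher (MAML2) and 1 lower (DLL4), where 8.2% of tested genes were called, 7.07% higher and 1.13% lower. In KD2, 1 met it higher (MAML2) and 2 lower (DLL4 and NOTCH3), where 11.1% of tested genes were called, 8.68% higher and 2.41% lower. Because the genes were chosen from these same differences, nothing is read from those counts.

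HSL119 and the knockdown lines were then set against each other directly, within the same fit of all 15 libraries. The CTL mean did not enter the differences, but the CTL libraries share in their SEs and calls. The genes were chosen on levels across all 4 groups, so these differences too are a description. DLL4 was higher in HSL119 than in the mean of KD1 and KD2 by 1.31 on the log2 scale relative to the median gene (SE 0.32), and NOTCH3 by 1.36 (SE 0.32). In each of these genes all 3 HSL119 libraries lay over all 8 knockdown libraries. MAML2 differed by -0.48 (SE 0.11), but by -0.14 after quantile scaling. The difference of LFNG was 0.59 (SE 0.34) and that of HES1 was -0.08 (SE 0.74). Against libraries 1 and 2 of the knockdown lines alone, LFNG differed by 1.16 and HES1 by -1.44. Against libraries 3 and 4 alone, LFNG differed by -0.04 and HES1 by 1.23, so the sign for HES1 depends on the pair. In this comparison 2 of the 5 genes met the criterion, both higher (DLL4 and NOTCH3), where 46.9% of tested genes were called, 22.2% higher and 24.8% lower.

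Between the knockdown lines, NOTCH3 was higher in KD1 than in KD2 at each of the 4 replicate numbers, and 0 of the 5 genes met the criterion, where 0.161% of tested genes (1 gene) were called by limma. Libraries of the same number deviate together in these lines, with correlations of 0.61 to 0.78, as libraries 1-2 and 3-4 stand apart in both. With KD1 and KD2 alone and the replicate number as a block, a fit chosen after seeing the data, limma called 110 of 622 genes on all 5 scalings. NOTCH3 (higher in KD1) was among them and none of the other 4 was. The 5 genes were chosen on levels across these same libraries, so this is a description and no test is read from it. In that blocked fit limma called 0 genes when the fits with libraries 1-2 and 3-4 averaged, which leave 2 pairs, were required too. KD1 minus KD2 was 0.81 for NOTCH3, with an SE of 0.34 without the block and 0.18 with it. Without KD2 replicate 4, the library with 97.4 scaled counts, the NOTCH3 difference was 0.41. The difference was 0.45 for DLL4 (SE 0.33, with the block 0.24), -0.48 for HES1 (SE 0.77, with the block 0.25), 0.10 for LFNG (SE 0.36, with the block 0.09) and -0.03 for MAML2 (SE 0.12, with the block 0.07). Within libraries 1 and 2 alone NOTCH3 differed by 0.51, and within libraries 3 and 4 alone by 1.12.

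Within each knockdown line, the library pairs differed in 4 of the 5 genes by more than they did in CTL. From libraries 1 and 2 to libraries 3 and 4, HES1 was 8.96-fold lower in KD1 (log2 difference -3.16) and 4.73-fold lower in KD2 (-2.24), whereas in CTL it was 1.88-fold higher in libraries 3 and 4 (0.91). By size, these differences ranked 2 of 622 in KD1, 6 of 622 in KD2 and 6 of 622 in CTL. LFNG went the other way, 2.15-fold higher in libraries 3 and 4 of KD1 (1.10) and 2.33-fold higher in KD2 (1.22), with -0.04 in CTL. NOTCH3 differed between pairs by -0.84 in KD1 and -1.46 in KD2, while CTL was at -0.10. DLL4 differed by -0.74 and -1.14, against 0.25 in CTL, at the low counts given above. MAML2 was level between pairs, at 0.01 in KD1, -0.16 in KD2 and 0.17 in CTL.

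Past 2-fold between pairs were 0 of the 5 genes in CTL, 2 in KD1 (HES1 and LFNG) and 4 in KD2 (DLL4, NOTCH3, HES1 and LFNG), where 0.482%, 6.43% and 9.97% of tested genes were past 2-fold. In KD1 1.93% of tested genes were past 2-fold higher and 4.5% lower in libraries 3 and 4, and in KD2 3.86% and 6.11%. The label of the gene set already separates these pairs, so the counts are a description. Of the 23 other Notch pathway genes tested, 0 were past 2-fold in CTL, 0 in KD1 and 1 in KD2, CCND1. JAG1, a Jagged-family ligand, was lower in libraries 3 and 4 by -0.75 in KD1 and -0.75 in KD2, and the receptor NOTCH1 by -0.39 and -0.45. Of the other ligands tested, DLL1 (-0.41 and -0.46) and JAG2 (-0.33 and -0.43) were lower there too, whereas DLL3 was higher (0.24 and 0.24). The receptor NOTCH2 was nearly level, at 0.04 and -0.10. Other list genes were higher in libraries 3 and 4 of KD1 and KD2, CCND1 by 0.88 and 1.44 and HDAC1 by 0.85 and 0.79. KAT2B was higher there by 0.65 and 0.79, and HDAC2 by 0.61 and 0.66. The labels give no property that separates libraries 1 and 2 from 3 and 4.

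**Figure D3:**
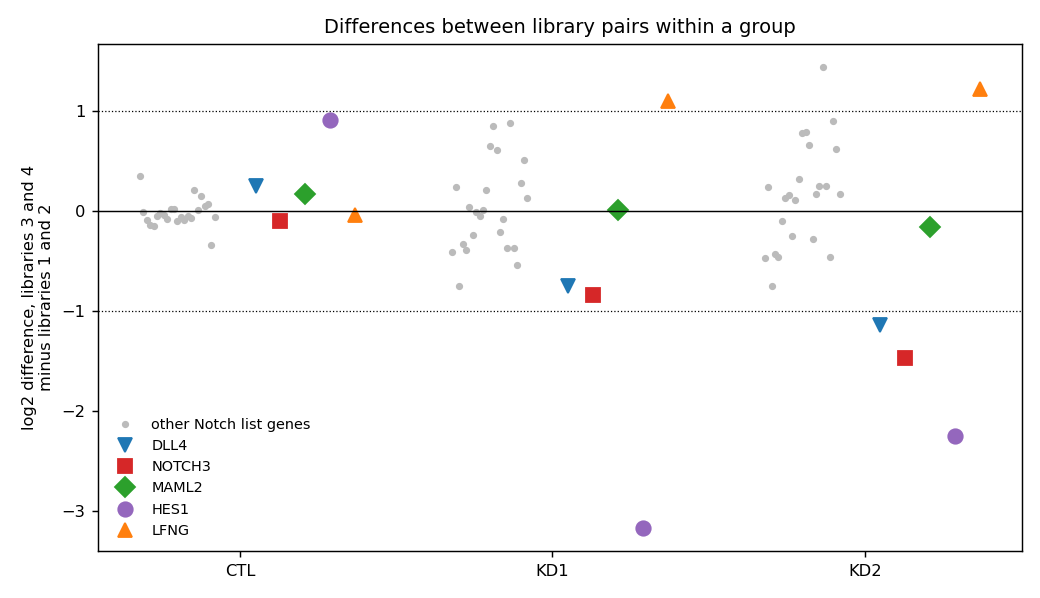
Log2 difference between the means of libraries 3 and 4 and of libraries 1 and 2 within CTL, KD1 and KD2 for the 5 genes (coloured symbols) and the 23 other Notch pathway genes tested (grey points), with dotted lines at a 2-fold difference. HES1 lies at 0.91 in CTL and at -3.16 and -2.24 in the knockdown lines, and LFNG lies on the opposite side of 0 there, at 1.10 and 1.22.

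Set against all 4 CTL libraries, on log2 scaled counts, the pairs of the 5 genes showed 3 patterns. MAML2 had a like difference in both pairs, with 2.02 and 2.03 for libraries 1-2 and 3-4 of KD1 and 2.13 and 1.97 for those of KD2. DLL4 and NOTCH3 had the same direction in both pairs and were further from CTL in libraries 3 and 4. DLL4 differed by -2.08 and -2.82 in KD1 and by -2.29 and -3.42 in KD2, while NOTCH3 differed by -0.66 and -1.49 in KD1 and by -1.15 and -2.61 in KD2. HES1 and LFNG changed sign between pairs. HES1 differed from CTL by 0.69 and -2.47 in KD1 and by 0.72 and -1.53 in KD2, and LFNG by -0.53 and 0.57 in KD1 and by -0.68 and 0.54 in KD2.

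The rest of the pathway was read from a list of 68 further ligands, receptors, modifiers, nuclear factors and targets, of which 25 are on the panel and 23 were tested (DTX1 and SOX9 were not). In HSL119, 7 of the 23 rose and 2 fell against CTL, or 39.1% of the list beside 38.4% of all tested genes, so the list was called about as often as the panel. Its median relative difference was 0.37, against 0 by construction over all tested genes. The 3 measured acetyltransferases that Notch complexes recruit all rose: KAT2B by 2.47 (SE 0.26), EP300 by 1.77 (SE 0.07) and CREBBP by 1.03 (SE 0.14), with a limma adjusted p of at most 0.0025 on any of the 10 fits. The Deltex genes DTX4, by 1.23 (SE 0.09), and DTX3, by 0.63 (SE 0.07), regulators of Notch turnover, rose too. Among known targets of Notch in other settings, CDKN1A, a CDK inhibitor, rose by 1.58 (SE 0.12) and ERBB2, the HER2 receptor, by 1.46 (SE 0.09), while MYC fell by 1.98 (SE 0.13) and CCND1, cyclin D1, fell by 1.84 (SE 0.38). The call of CCND1 was lost without any of the 3 HSL119 replicates. Of the 4 other ligands and 2 other receptors none was called, with differences from -0.93 (DLL1) to 0.14 (DLL3, which turned to -0.13 on another scaling).

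In the knockdown lines, the acetyltransferase EP300 was the list gene called, and it rose by 0.66 (SE 0.07) in KD1 and 0.69 (SE 0.07) in KD2. Thus 1 of 23 rose and 0 fell in each line, or 4.35% of the list beside 8.2% of all tested genes in KD1 and 11.1% in KD2, with medians of 0.21 in KD1 and 0.19 in KD2. At an unadjusted p under 0.05 in limma on the deposited values, 18 of 23 passed in KD1 and 16 in KD2 (78.3% and 69.6%, beside 64% and 64.6% of all tested genes). edgeR called 13 and 11 (56.5% and 47.8%, beside 44.7% and 52.1%). The EP300 call in KD1 was lost without HSL119 replicate 2, and neither call stood with only the compared groups in the fit. The other Delta and Jagged ligands were all below the median gene, from -0.87 (JAG1) to -0.12 (DLL3) in KD1 and from -0.67 (JAG2) to -0.19 (DLL3) in KD2. None of them met the limma criterion, but edgeR called JAG1 and JAG2 lower in KD1 and DLL1 and JAG2 lower in KD2. Before the median was taken off, DLL3 stood above CTL on the deposited values, by 0.31 in KD1 and 0.23 in KD2.

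**Figure D4:**
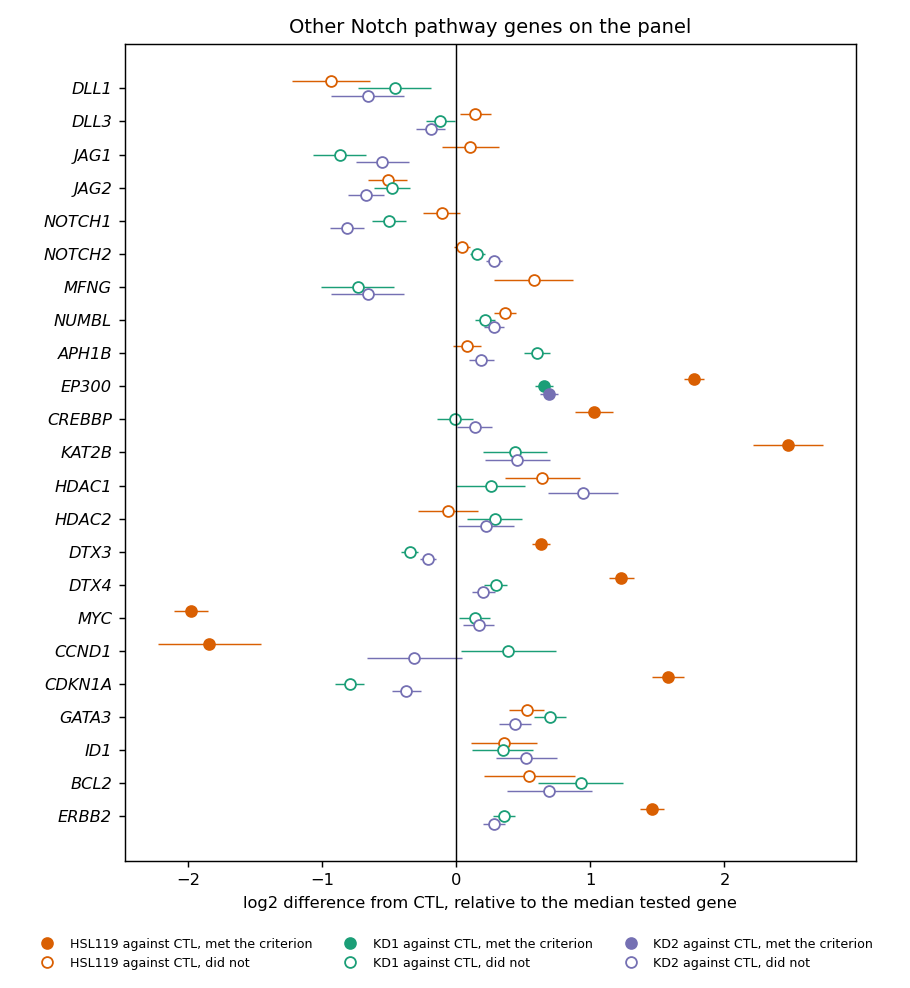
Log2 difference from CTL, relative to the median tested gene, of the 23 other Notch pathway genes in HSL119, KD1 and KD2, with bars of 1 SE, filled where the gene met the call criterion and open where it did not. In HSL119 9 points are filled, from -1.98 for MYC to 2.47 for KAT2B, and in each knockdown line 1 is, EP300, at 0.66 and 0.69.

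Between HSL119 and the mean of the knockdown lines, 9 of the 23 list genes rose and 2 fell, or 47.8% of the list beside 46.9% of all tested genes, with a median of 0.18. CDKN1A was higher in HSL119 by 2.23 (SE 0.11), KAT2B by 2.09 (SE 0.23) and MFNG, another Fringe gene, by 1.34 (SE 0.26). ERBB2 (1.21), EP300 (1.16), DTX4 (1.05), CREBBP (1.03) and DTX3 (0.97) were also called higher, and JAG1 by 0.88 (SE 0.19), a call that was lost without any of the 3 HSL119 replicates. MYC fell by 2.06 (SE 0.11) and CCND1 fell by 1.81 (SE 0.34). MFNG rests on few counts, at a mean of 34.02 scaled counts in HSL119, 22.9 in CTL, 13.9 in KD1 and 14.1 in KD2. Between KD1 and KD2, 0 of 23 were called, and 5 passed at an unadjusted p under 0.05 in limma on the deposited values (21.7%, beside 20.1% of all tested genes). edgeR called 2 (8.70%, beside 9.16% of all tested genes). With the replicate number as a block and all libraries, limma called 5 of the 23, where it called 110 of all 622 tested genes. They were NOTCH1, APH1B, CCND1 and GATA3, higher in KD1, and HDAC1, lower in KD1. None of them was called when the fits with averaged pairs were required too.

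For each of the 5 genes, the 3 tested genes with the most similar pattern were sought, by the root mean square difference of log2 scaled counts over the 15 libraries after each gene was centred on its CTL mean. NOTCH3 lay closest to HDAC5, a histone deacetylase, at 0.25, then to LEPR, the leptin receptor, at 0.43 and BBC3, which encodes the pro-apoptotic protein PUMA, at 0.44, where the median over 621 genes was 1.33. HDAC5 had mean scaled counts of 2150 in CTL and 2189 in HSL119, and 1159 and 522 in libraries 1-2 and 3-4 of KD1 and 1078 and 318 in those of KD2. MAML2 lay closest to EFNA5, an ephrin ligand, at 0.34, the linker histone gene HIST1H1C at 0.44 and the metalloprotease gene ADAM12 at 0.52 (median 1.72). EFNA5 had means of 47.9 in CTL, 139 in HSL119, 170 in KD1 and 217 in KD2. Unlike MAML2, it was not level between pairs, with 123 and 217 in libraries 1-2 and 3-4 of KD1 and 168 and 267 in those of KD2. HIST1H1C and ADAM12 were also higher in libraries 3-4 of both lines.

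LFNG lay closest to the RNA helicase gene DDX39A at 0.29, the prolyl hydroxylase gene EGLN2 at 0.33 and RBL1, a relative of RB1, at 0.34 (median 0.74). The genes nearest to HES1 were GADD45A, a stress-response gene, at 0.68, ADM, which encodes adrenomedullin, at 0.69 and BTG2, an antiproliferative gene, at 0.75 (median 1.33). They did not all share its change of side between pairs. In libraries 1-2 of KD1 and KD2, ADM (2429 and 2428) and BTG2 (676 and 654) lay under their CTL means of 2858 and 862. GADD45A lay under its CTL mean of 7008 in those of KD1 (5937) and above it in those of KD2 (7937). DLL4 lay 0.78 from BAIAP3, 0.84 from the CDK inhibitor gene CDKN1C and 0.85 from the cytokine signalling inhibitor gene SOCS1 (median 2.15). BAIAP3 had means of 192 in CTL, 98.5 in HSL119, 65.7 in KD1 and 60.5 in KD2, the same order of groups as DLL4. The order differed for CDKN1C, which was lowest in HSL119 (166, against 283 in KD1 and 285 in KD2). It differed for SOCS1 too, with 473 in KD2, 438 in HSL119 and 409 in KD1. Among the 5 genes themselves, DLL4 and NOTCH3 lay closest, at 1.11, and DLL4 and MAML2 furthest apart, at 3.70.

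Because DLL4 and NOTCH3 are also markers of vessels, genes of other cell types on the panel were read beside them. Of 5 endothelial genes (PECAM1, CDH5, KDR, TEK and TIE1), 0 had a mean over 20 in CTL, 2 in HSL119, 2 in KD1 and 3 in KD2, and their summed scaled count was 59.9 to 90.9 in CTL. The sum lay above CTL in every library of HSL119 (94.2 to 122) and KD2 (103 to 311) and overlapped CTL in KD1 (90.6 to 238), groups in which DLL4 was lower. The 4 genes of mural cells and fibroblasts (PDGFRB, PDGFRA, FAP and DCN) summed to 362 to 425 in CTL, 288 to 337 in HSL119, 347 to 368 in KD1 and 334 to 385 in KD2. PDGFRB was over 20 on average in CTL and HSL119, PDGFRA in every group and DCN in none. FAP went the other way from PDGFRB, over 20 in HSL119, KD1 and KD2 but not in CTL. The part of these genes in the Notch results was not tested.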

How the data were processed

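RNA of 15 JIMT-1 libraries in 4 groups was measured on a panel of 758 genes. The deposited table gives a log2 normalized count and a normalized linear count (a signal scaled by the authors) per gene and library, per the file headers; the normalization and the software are not given in the sources used here. Each library's log2 values sat at a fixed offset from log2 of its linear values, with a mean of -0.16 in CTL, 0.17 in HSL119 and nil in the knockdown lines. A further deposited table held the same log2 values and served as a check.

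The deposited linear values were whole multiples of a step per library: 100% of values up to 100 steps were whole within 0.01, and these multiples were taken as the whole counts. For 2 HSL119 libraries too few values were small enough for an outside check of the step. Log2 values were fitted with limma 3.58.1 (trend, 1 fit of 4 groups) in R 4.3.3 on 5 scalings: deposited log2, log2(linear + 1), library medians centred, quantile, and median of ratios. Tested genes had a linear value over 20 in at least 3 libraries (622; 136 did not). edgeR 4.0.16 ran on the whole counts of CTL, KD1 and KD2. Printed differences are relative to the median gene, whereas p-values test the difference on each scaling before that median is taken off. Replicate numbers were checked for pairing: the 4 correlations of same-numbered KD1 and KD2 libraries ran from 0.61 to 0.78, a pairing seen in the data and not stated by the labels, and the 17 between other groups from -0.22 to 0.13.

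The 5 genes, the pathway list and the markers were chosen with earlier results of these data known. Named genes are the 5 genes, every called gene of the list and the 3 nearest genes to each of the 5. CCND1, HDAC1, KAT2B and HDAC2 between library pairs, JAG1, NOTCH1, NOTCH2, JAG2, DLL1, DLL3, and MFNG and ERBB2 levels were chosen after their values were seen. Promoters came from RefSeq. The leukocyte marker list is not reported here.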

Additional observations from a re-analysis of the deposited data

Results flagged for a closer look

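MAML2 in KD2 was picked out because replicate 1, at 327 scaled counts, stood apart from the other 3 KD2 libraries: its gap to the nearest of them was 0.830 of the range of the group, just over the 95% limit for 4 samples, which chance exceeds in about 1 in 20 groups.

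HES1 and LFNG were picked out because, in both knockdown lines, libraries 1 and 2 lay on the opposite side of the CTL mean from libraries 3 and 4. For HES1 in KD1, the difference from the mean of all CTL libraries was 0.69 in libraries 1 and 2 and -2.47 in libraries 3 and 4, a change of -3.16 on the log2 scale. In KD2 it was 0.72 and -1.53, a change of -2.24. For LFNG in KD1, the difference was -0.53 and 0.57, a change of 1.10, and in KD2 it was -0.68 and 0.54, a change of 1.22. These are log2 scaled counts without the median gene taken off, and the differences between pairs were not tested.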

How the results depend on the processing

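Of the 5 counts of called genes, those on a single scaling with all libraries were larger. On deposited log2, log2 plus 1, median centring, quantile and median of ratios in turn, they were 445, 419, 408, 410 and 422 for HSL119 against CTL (239 in the text), 373, 298, 300, 274 and 287 for KD1 (51), 386, 347, 335, 313 and 335 for KD2 (69) and 57, 61, 63, 45 and 49 for KD1 against KD2 (1). The split of higher and lower calls moved with the scaling, from 300 and 145 on deposited log2 to 144 and 264 on median centring in HSL119, from 334 and 39 to 112 and 188 in KD1, and from 336 and 50 to 126 and 209 in KD2. Without averaging pairs, all 5 scalings together called 144 in KD1, 164 in KD2 and 34 between the lines. edgeR called 278, 324 and 57. With only the compared groups in the fit, limma called 0, 0 and 0, where 88, 90 and 17 genes had an unadjusted p under 0.05 in every fit; the averaged pairs leave 2 values per group there. Leaving out each library in turn gave 203 to 243 for HSL119, 15 to 59 for KD1 (15 without HSL119 replicate 2), 45 to 70 for KD2, 0 to 1 between the lines and 250 to 293 for HSL119 against the knockdown lines. With the replicate number as a block, the counts were 239, 51, 69, 1 and 293, and none of the 5 genes gained or lost the criterion. With KD1 and KD2 alone in the fit and the replicate block, an alternative chosen after seeing the data, limma called 110 genes between the lines with all libraries (NOTCH3 among them) and 0 over all 10 fits; 229 had an unadjusted p under 0.05 on the deposited values. For HES1, HSL119 minus the knockdown mean was -0.08 over all libraries and 1.23 against libraries 3 and 4, as given above. Of the differences of the 5 genes under the alternatives, 520 kept their direction and criterion or moved by less than a replicate SD, and 1 reversed. The criterion was lost for DLL4 in HSL119 against CTL without HSL119 replicate 1 or 3, CTL replicate 1 or KD1 replicate 4, for NOTCH3 in KD2 without HSL119 replicate 1 or 3, and against the knockdown lines for DLL4 without HSL119 replicate 2 and for NOTCH3 without HSL119 replicate 1. The cause of these changes was not tested. DLL4 rests on 6 to 22 counts per knockdown library.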
